A study of Saccharomyces cerevisiae with 21 samples.

Results

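The 6 arrays of Saccharomyces cerevisiae strain S288C set side by side here are 3 of cells given 20.3 Gy of fast neutrons and 3 of cells given 20.8 Gy of thermal neutrons. They were chosen by their labels alone and make up 6 of the 12 arrays of the series, or 12 of its 21 samples, since each of these 6 slides was read with a strong and a weak laser setting and both readings were deposited. S288C is the haploid laboratory strain whose genome is the yeast reference. In both groups washed cells were irradiated in 2 ml of cold saline in cuvettes, and before RNA was taken they grew at 25 C for 40 min in YPD (50 ml), a rich glucose medium. Each array compared irradiated cells (Cy5) with unirradiated cells of the same experiment (Cy3), which had been kept cold in tissue culture flasks for 19 h for fast and 20 h for thermal neutrons, so the control differed from the irradiated cells in its vessel as well as in the radiation. No control was shared between the 2 radiations.

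The exposures were close in labelled dose and differed in make-up. By the labels, the fast neutrons came from an accelerator and delivered a total of 21.4 Gy in 336 min at 64 mGy/min, of which 20.3 Gy were net fast neutrons, while another field of the same labels gives an exposure of 19 h. The growth protocols of both neutron groups name heavy ion radiation as the exposure, against the titles, and the groups are taken here from the titles. The thermal neutron group stood in a reactor beam at 17 mGy/min for 20 h, and only 1.0 to 2.0 mGy/min of that came from thermal neutrons. Its values therefore describe a mixed field. The 2 radiations were also measured on different array types, whose values were normalised separately, so radiation, dose rate, facility and array type cannot be told apart. For this reason each radiation was tested against its own control only, and no test of fast against thermal neutrons was made.

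Ionising radiation breaks and oxidises DNA, and budding yeast answers through the checkpoint kinases Mec1, Rad53 and Dun1, which relieve repression of the ribonucleotide reductase genes and so raise the supply of DNA precursors. Separate programmes answer other stresses. The heat shock factor Hsf1 drives chaperone genes when proteins misfold, Rpn4 drives the proteasome genes, and Msn2 and Msn4 drive a broad set of general stress genes while genes for ribosome assembly are turned down. Glucose, zinc, phosphate and amino acid supply each control their own sets of transporters and enzymes.

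Values are log2 ratios of irradiated over control, given per array in the order replicate 1, 2, 3, and a mean is followed by its moderated standard error from limma (n = 3 arrays). A gene is said to have risen or fallen when the Benjamini-Hochberg adjusted p of its limma test against 0 was under 0.05 over all genes tested. The log base of the fast neutron table is taken over from the other table, where 4 columns have their minimum at log2 of 0.01, and no fast neutron column fixes it. Irradiated RNA carried the same dye on every array, and any dye bias of a gene therefore stays in its values. Nothing in the labels says that the 3 arrays of a radiation came from separate cultures, so p-values measure only the spread between arrays, which may be technical. Of 4846 genes with a value on all 6 arrays, the per-array values correlated across genes with r between 0.749 and 0.88 among thermal arrays and between 0.425 and 0.689 among fast arrays. Fast replicate 2 stood apart: its 2 scans, at high and low laser power, correlated with r = 0.704, against 0.927 to 0.963 for the other 5 arrays. It lay more than 1 log2 unit away from both other fast arrays, which lay within 0.5 of each other, at 225 genes, and below them at 215 of these. The same count was 59 for thermal replicate 3, 47 for fast replicate 3 and between 1 and 19 for the other arrays.

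After fast neutrons 630 of 4936 genes tested (12.8%) passed, 304 higher (6.16%) and 326 lower (6.60%). After thermal neutrons 2337 of 5301 (44.1%) passed, 1112 higher (21.0%) and 1225 lower (23.1%). The fast count moved with single arrays: it was 1259 (25.5%) without replicate 2, 68 without replicate 1 and 62 without replicate 3, and the thermal count was 1515 without replicate 1, 1540 without replicate 2 and 2627 (49.6%) without replicate 3. Of 81 fast calls at genes named here, all were kept without fast replicate 2, 25 without replicate 1 and 28 without replicate 3. From the low-power scans alone 80 were kept. From the high-power scans alone 19 were kept and 58 did not pass, and the others were not tested there. Hence a gene that did not pass after fast neutrons is not shown to be unchanged. In the counts of gene lists below, 3 numbers in parentheses after "left out" are the count without replicate 1, 2 and 3 of that radiation. Genes that passed with a change of at least 2-fold were 116 after fast (2.35%) and 335 after thermal neutrons (6.32%), and 2.27% and 6.49% without fast replicate 2 or thermal replicate 3.

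The 2 responses overlapped and were of the same direction at most shared genes. Of the 4846 genes, 606 passed after fast and 2159 after thermal neutrons, and 415 passed after both (53, 751 and 48 without fast replicate 1, 2 or 3). These were 68.5% of the fast list and 19.2% of the thermal list, beside 44.6% of all 4846 genes that passed after thermal and 12.5% that passed after fast neutrons. The 2 exposures moved 396 of the 415 the same way (8.17% of the 4846), 167 higher (3.45%) and 229 lower (4.73%), and 19 (0.392%) in opposite directions. Across genes the 2 means correlated with r = 0.513, or 0.505 without fast replicate 2. The 3 arrays of thermal neutrons all lay above the 3 of fast neutrons at 752 genes (15.5%), and the reverse held at 795 genes (16.4%). All fast arrays were above 0 and all thermal arrays below 0 at 180 genes (3.71%), and the opposite was seen at 126 (2.60%). These percentages are the background for the non-overlap counts given for the gene groups below.

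**Figure D1:**
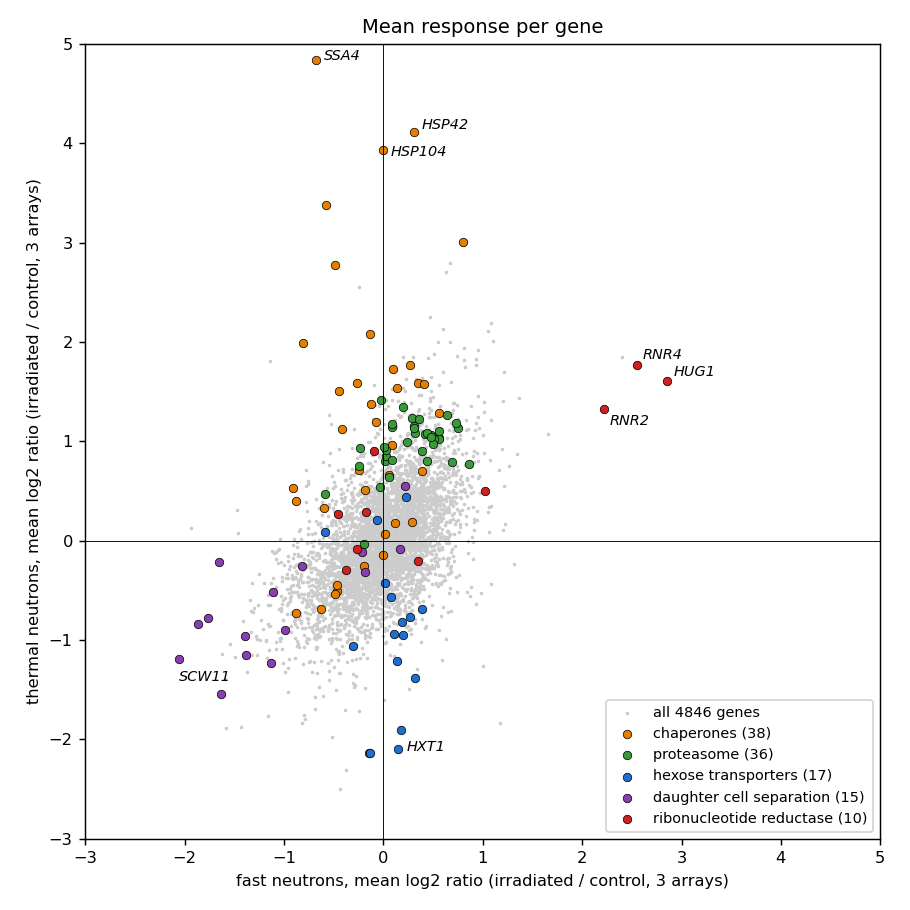
Mean log2 ratio of irradiated over control for each of 4846 genes, fast neutrons on the horizontal axis and thermal neutrons on the vertical axis (means of 3 arrays). Members of 5 gene lists are coloured. Chaperone genes (orange) reach 4.84 on the thermal axis while their fast means stay between -0.92 and 0.80, HUG1, RNR2 and RNR4 (red) are high on both axes, hexose transporters (blue) reach -2.13 on the thermal axis near 0 on the fast axis, and daughter cell genes (purple) are low on both.

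HUG1 and RNR4, of the ribonucleotide reductase list, had the highest means of all genes after fast neutrons, and with RNR2 they lay higher there than after thermal neutrons. HUG1, a small inhibitor of ribonucleotide reductase that is induced by DNA damage, stood at 2.63, 3.42 and 2.52 after fast neutrons and at 1.63, 1.52 and 1.66 after thermal neutrons. It rose 7.25-fold (2.86 ± 0.20, adjusted p = 0.0014) and 3.04-fold (1.60 ± 0.12, adjusted p = 4.7e-05), and each fast array lay above every thermal array. RNR4, a small subunit of the enzyme, was at 2.66, 2.73 and 2.26 after fast and at 1.77, 1.71 and 1.84 after thermal neutrons, which is 5.86-fold and 3.42-fold with no overlap of the arrays. RNR2, the other small subunit, was at 2.36, 2.49 and 1.80 (fast) and at 1.32, 1.54 and 1.10 (thermal), again higher on all 3 fast arrays. RNR3, the damage-induced large subunit, rose after fast neutrons (0.81, 1.51 and 0.74) and was at 1.07, 0.85 and -0.42 after thermal neutrons, where replicate 3 lay below 0 and the gene did not pass (adjusted p = 0.13). RNR1, the main large subunit, did not pass after either (means 0.34 ± 0.16 and -0.20 ± 0.20). RFX1, the repressor of these genes, rose after thermal neutrons (1.35, 0.49 and 0.89) and stood at 0.25, -0.94 and 0.39 after fast neutrons, with replicate 2 apart. In all, 4 of 10 reductase genes and regulators rose after fast and 4 of 10 after thermal neutrons, and 3 of 10 had every fast array above every thermal one.

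Most other damage-induced genes stood higher after thermal neutrons. Over the whole list of 24 damage-induced genes, which holds HUG1, RNR2, RNR3 and RNR4 too, 9 of 21 measured members rose after fast neutrons (median 0.48) and 17 of 23 after thermal neutrons (median 0.88), with none lower in either, beside medians over all genes of 0.00 and -0.04. In 11 of 21 members all thermal arrays lay above all fast arrays, and in 3, which are HUG1, RNR2 and RNR4, the reverse held. Without fast replicate 1, 2 or 3 the fast count was 3, 10 or 4. MAG1, a DNA glycosylase that removes alkylated bases, and DDI1, its divergently transcribed neighbour that encodes a ubiquitin receptor, behaved alike. MAG1 was at 0.76, 0.35 and 0.92 after fast and 1.60, 1.29 and 1.92 after thermal neutrons, and DDI1 at 1.11, 0.41 and 0.94 (fast) and 1.56, 1.58 and 2.09 (thermal). Both rose after both exposures and did not overlap between them.

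The 3 subunits of RPA, the protein that coats single-stranded DNA, differed more. RFA1, the largest of them, was at 1.73, 1.51 and 1.28 after thermal and 0.43, 0.76 and 0.25 after fast neutrons. RFA2 was at 1.27, 0.87 and 0.52 (thermal) and 0.28, -1.21 and 0.33 (fast), and RFA3 at 1.12, 1.12 and 1.13 (thermal) and 0.65, -1.12 and 0.36 (fast). All 3 rose after thermal neutrons and none passed after fast neutrons, where replicate 2 was below 0 for RFA2 and RFA3 while the other 2 arrays were above. For RFA3 its high-power scan read -2.01 and its low-power scan -0.23, and without that array RFA3 passed as higher (0.51, adjusted p = 0.026). On the other 2 fast arrays both subunits were below every thermal array too.

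Among repair genes proper, RAD54, which drives strand exchange in recombination, rose after both (means 0.64 ± 0.16 and 1.04 ± 0.12), and so did RAD26, which couples excision repair to transcription (0.64 ± 0.15 and 0.72 ± 0.17), and FMP52, a mitochondrial protein of the damage-induced list (1.09 ± 0.19 and 1.22 ± 0.13). PLM2, a transcription factor of the damage response, rose 2.32-fold after fast and 1.47-fold after thermal neutrons, and it was among the 7 of 21 damage-induced genes whose mean was larger after fast neutrons. PHR1, the light-dependent photolyase, RAD23, which helps recognise lesions, and RAD2, an excision repair nuclease, rose after thermal neutrons (means 1.05 ± 0.19, 0.77 ± 0.12 and 0.57 ± 0.15), and their fast means were 0.40 ± 0.14, 0.30 ± 0.14 and -0.35 ± 0.14. RAD59 and RAD52, which anneal strands in recombination, rose after thermal neutrons (0.85 ± 0.13 and 0.47 ± 0.13) and stood at 0.42 ± 0.17 and 0.39 ± 0.14 after fast neutrons, with overlapping arrays. Of the 16 double-strand break repair genes measured after fast neutrons 1 rose (left out: 0, 3, 0), near the 6.16% of all genes. After thermal neutrons 4 of 19 rose (left out: 2, 3, 5) and 4 fell (left out: 2, 1, 4), near the 21.0% and 23.1% of all genes. Of 33 DNA replication genes 0 passed after fast neutrons by limma with adjustment over all genes, and 2 had a higher and 1 a lower mean at an unadjusted p under 0.05. After thermal neutrons 5 of 35 fell and 1 rose, below the 23.1% of all genes that fell and the 21.0% that rose. PSF3 and SLD5, of the GINS complex that travels with the replication fork, fell after thermal neutrons (-0.86 ± 0.13 and -0.89 ± 0.14) and had means of 0.25 ± 0.14 and 0.28 ± 0.16 after fast neutrons, with every fast array above every thermal one.

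**Figure D2:**
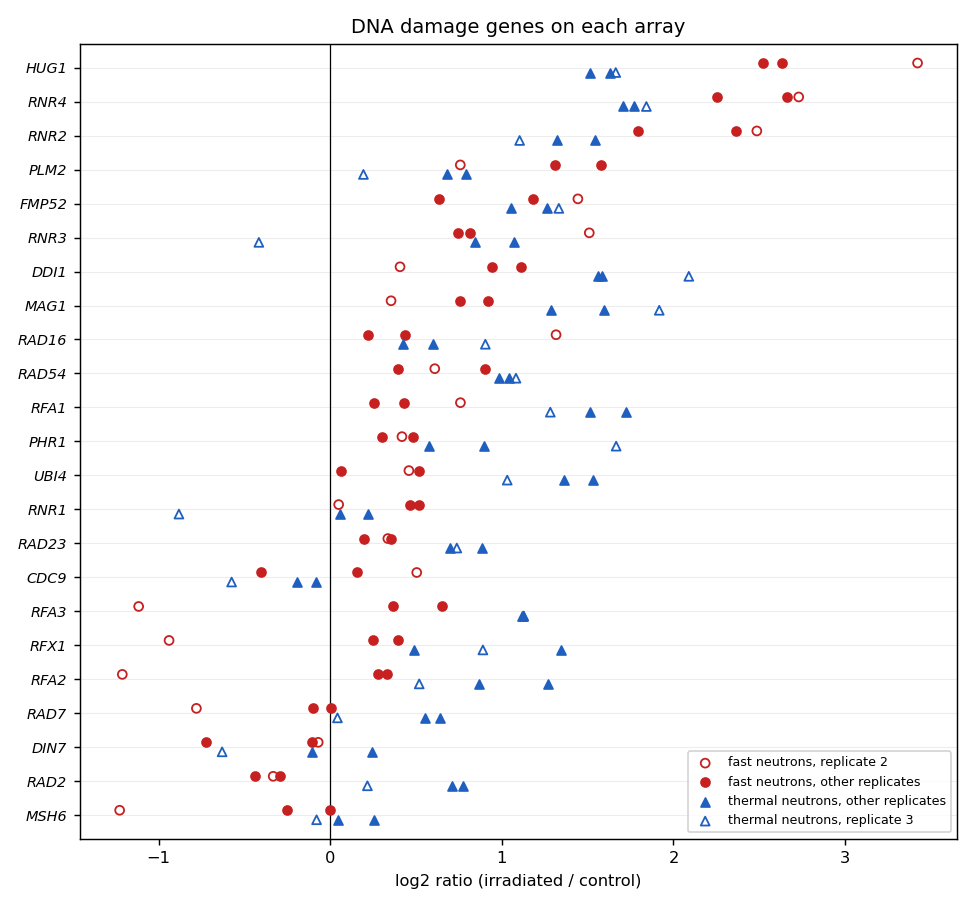
Log2 ratio on each array for the measured genes of the damage-induced list and for RNR1 and RFX1 (fast neutrons red circles, thermal neutrons blue triangles; fast replicate 2 and thermal replicate 3 are open symbols). HUG1, RNR4 and RNR2 lie further right on the 3 fast arrays than on the thermal arrays, while MAG1, DDI1, RFA1, RFA3 and UBI4 lie further right on the 3 thermal arrays. The open red circles of RFA2 and RFA3 lie left of 0.

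Of the 48 gene lists, the chaperones had the largest median difference between the 2 exposures (-1.20, fast minus thermal). After thermal neutrons 27 of 38 measured chaperone genes rose and 5 fell, with a median of 1.08 and array medians from 1.01 to 1.03. After fast neutrons 1 of 38 rose and 7 fell, with a median of -0.13 and array medians from -0.26 to -0.11. Without fast replicate 2 the fast counts were 4 higher and 12 lower, and they were 0 in either direction without replicate 1 and without replicate 3. In 27 of 38 genes all thermal arrays lay above all fast arrays, and in 0 the reverse held.

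SSA4, the stress-induced cytosolic Hsp70, was the highest gene of either exposure, at 4.87, 4.98 and 4.67 after thermal neutrons (28.6-fold, adjusted p = 1e-07). After fast neutrons it fell, at -0.96, -0.26 and -0.81 (adjusted p = 0.045), so the nearest arrays of the 2 radiations were 4.93 log2 units apart. SSA3, another stress-induced Hsp70, was at 2.44, 1.90 and 1.63 after thermal and -1.48, -0.43 and -0.50 after fast neutrons (adjusted p = 0.053 for fast). SSA2, a constitutive Hsp70, rose after thermal neutrons (0.66, 0.89 and 0.05) and fell after fast neutrons (-0.81, -1.40 and -0.53). SSA1 was not analysed here, and SSA1 and SSA2 are near-identical in sequence, so the probes may not tell them apart. The same holds for HSC82 and HSP82.

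The genes that handle aggregates followed the same order. HSP42, a small heat shock protein that sorts aggregates, was at 4.20, 3.99 and 4.15 after thermal and 0.27, 0.40 and 0.25 after fast neutrons. HSP104, the disaggregase, was at 4.25, 4.10 and 3.46 (thermal) and -0.39, 0.27 and 0.11 (fast). BTN2, a sorting factor for misfolded proteins, rose after thermal neutrons (3.84, 3.49 and 2.82) and fell after fast neutrons (-0.67, -0.44 and -0.62). Their thermal means correspond to 17.3-fold, 15.3-fold and 10.4-fold over the control. SIS1, an Hsp40 partner of Ssa proteins whose level tracks Hsf1 activity, was at 2.17, 2.19 and 1.89 after thermal and at -0.27, 0.12 and -0.24 after fast neutrons. HSP26, a small heat shock protein that is also a general stress gene, was the one chaperone gene to rise after both (0.41, 1.37 and 0.61 fast, 3.73, 2.24 and 3.07 thermal).

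Both Hsp90 genes and several of their partners rose after thermal neutrons, and none of them passed as higher after fast neutrons. HSP82, the stress-induced Hsp90, was at 1.77, 1.42 and 1.57 after thermal neutrons and -0.27, -0.50 and -0.04 after fast neutrons, and HSC82, its constitutive copy, at 1.28, 1.05 and 1.04 (thermal) and -0.59, -0.34 and -0.32 (fast). The cochaperones STI1, AHA1 and CPR6 had thermal means of 1.73 ± 0.13, 1.20 ± 0.14 and 1.51 ± 0.17 and fast means of 0.10 ± 0.15, -0.07 ± 0.14 and -0.45 ± 0.15, with no overlap between arrays. HCH1, CDC37 and SBA1, also Hsp90 cochaperones, rose after thermal neutrons (0.71 ± 0.12, 0.96 ± 0.13 and 1.29 ± 0.16) and did not pass after fast neutrons (-0.25 ± 0.14, 0.09 ± 0.15 and 0.56 ± 0.18). CPR7, a cyclophilin partner of Hsp90, instead fell after thermal neutrons (-0.51 ± 0.15, fast -0.47 ± 0.16), and CNS1, a further cochaperone, passed after neither (0.07 ± 0.13 thermal, 0.01 ± 0.15 fast). In mitochondria HSP78, a disaggregase, was at 3.15, 2.64 and 2.54 (thermal) and -0.91, -0.11 and -0.42 (fast), and MDJ1, an Hsp40, at 1.96, 1.89 and 1.45 (thermal) and 0.01, 0.44 and 0.34 (fast). HSP60, the mitochondrial chaperonin, rose slightly after thermal neutrons (0.67, 0.18 and 0.34) and fell after fast neutrons (-1.15, -0.74 and -0.77), and SSC1, the mitochondrial Hsp70, fell after fast neutrons (-0.78, -0.41 and -0.59) and did not pass after thermal neutrons (0.62, 0.36 and 0.01).

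Chaperones that act on nascent chains at the ribosome, SSZ1, ZUO1 and SSB2, did not share the rise. SSZ1 fell after both exposures (means -0.88 ± 0.15 and -0.73 ± 0.16), and ZUO1 and SSB2 fell after thermal neutrons (-0.45 ± 0.16 and -0.54 ± 0.14) and had fast means of -0.46 ± 0.15 and -0.49 ± 0.15 that did not pass. PPT1, a phosphatase that acts with Hsp90, fell after both (-0.63 ± 0.14 and -0.69 ± 0.14). The CCT chaperonin, which folds actin and tubulin, rose in 4 of 8 subunits after thermal (left out: 2, 0, 5) and in 0 of 8 after fast neutrons (0 by limma at an unadjusted p under 0.05), and in 5 subunits the arrays did not overlap. In the endoplasmic reticulum KAR2, the resident Hsp70, was at 0.89, 0.92 and 0.57 after thermal (higher) and -0.78, -0.27 and -0.76 after fast neutrons (adjusted p = 0.051), while HAC1, the transcription factor of the unfolded protein response, fell in both (-0.97 ± 0.23 fast, -0.64 ± 0.15 thermal).

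The other radiations of the series give a scale for this. The mean of SSA4 was 0.09 after 17 Gy of gamma rays and 0.69 after 25 Gy of carbon ions, that of HSP104 was -0.17 and 0.90, and that of HSP82 -1.29 and 0.15. These 2 groups were measured on the same array type as the thermal neutron arrays. For these 3 genes the thermal mean was the highest of the 4 radiations. The cause of the chaperone difference was not tested. Per the labels both neutron groups were kept at low temperature, with no measured temperature given.

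**Figure D3:**
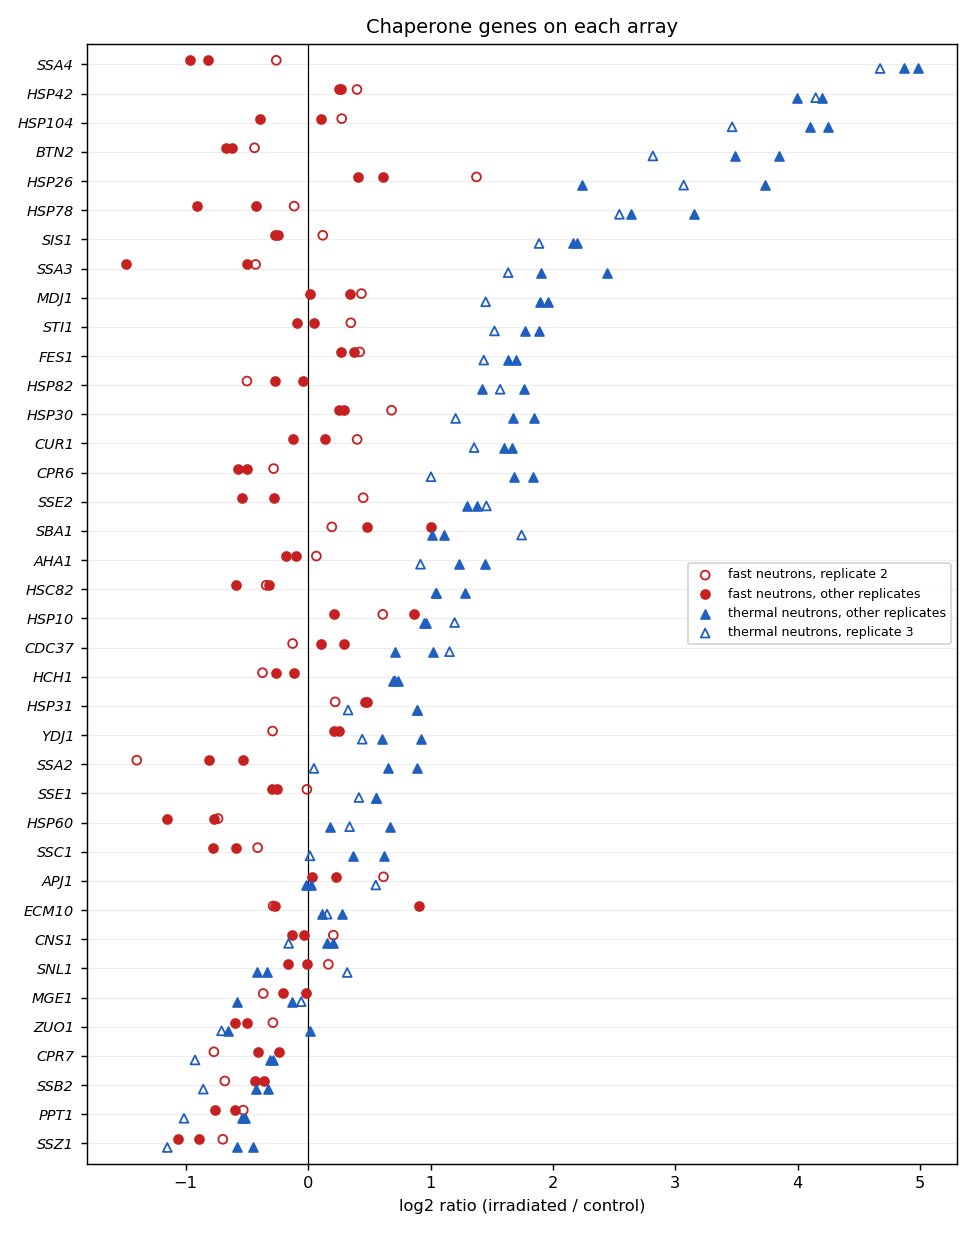
Log2 ratio on each array for the 38 measured chaperone genes, ordered by thermal mean (symbols as in the plot of damage genes). From SSA4 at the top down to SSE2 the 3 blue triangles of each gene lie right of its 3 red circles. SSZ1, PPT1, SSB2, CPR7, ZUO1 and MGE1 lie left of 0 in mean after both exposures.

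Protein breakdown genes rose with the chaperones after thermal neutrons. Of 36 proteasome genes 35 rose, with a median of 1.02. After fast neutrons 5 of 36 rose and the median was 0.31, with 30 means above 0, and the count of risen genes was 0, 16 or 0 without replicate 1, 2 or 3. In 30 of 36 genes every thermal array lay above every fast array. The subunits that rose after fast neutrons were mostly of the core particle: SCL1 was at 0.74, 0.96 and 0.89 (thermal 0.93, 0.76 and 0.63), PRE4 at 0.72, 0.95 and 0.59 (thermal 0.98, 1.21 and 1.22) and PRE7 at 0.64, 0.74 and 0.69 (thermal 0.67, 0.80 and 0.91). At SCL1 and PRE7 the arrays of the 2 radiations overlapped. RPT2, an ATPase of the regulatory particle, was at 1.62, 1.38 and 1.25 after thermal neutrons and 0.73, -1.05 and 0.24 after fast neutrons, with replicate 2 alone below 0, and passed as higher without it (0.48, adjusted p = 0.036). All 17 measured genes of the ubiquitin and CDC48 list rose after thermal neutrons (median 0.78) and 1 of 17 (left out: 0, 1, 0) after fast neutrons (median 0.28). UBI4, the stress-induced polyubiquitin gene, was at 1.53, 1.36 and 1.03 (thermal) and 0.51, 0.46 and 0.07 (fast), and UBC5, a ubiquitin-conjugating enzyme for abnormal proteins, rose in both (0.72, 0.52 and 0.42 fast, 1.26, 1.08 and 1.50 thermal). Autophagy genes rose in 10 of 23 cases (left out: 7, 8, 12) and fell in 4 (left out: 1, 1, 4) after thermal neutrons. After fast neutrons 2 of 20 rose (left out: 0, 3, 0). Over all genes 21.0% rose and 23.1% fell after thermal neutrons, and 6.16% rose after fast neutrons. ATG8, which encodes the ubiquitin-like protein of the autophagosome membrane, was at 2.17, 1.71 and 2.52 after thermal and 0.84, 0.02 and 0.93 after fast neutrons. ATG1, the kinase that starts autophagy, rose after both (0.68 ± 0.17 and 1.26 ± 0.13).

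Many general stress and redox genes rose after both exposures. Of the general stress list 13 of 27 genes rose after fast and 24 of 30 after thermal neutrons, 12 of them in both, while 2 fell after thermal neutrons. Without fast replicate 1, 2 or 3 the fast count was 2, 17 or 4. HSP12, a membrane-stabilising stress protein, was at 2.50, 2.67 and 2.04 after fast and 1.86, 2.15 and 1.53 after thermal neutrons, and the arrays overlapped. DDR2, named for its DNA damage response, was at 1.19, 1.87 and 0.97 (fast) and 0.72, 0.79 and 1.11 (thermal), also overlapping. SPI1, a cell wall protein of the general stress response, was at 1.21, 1.31 and 0.62 (fast) and 1.98, 1.98 and 2.38 (thermal), and PNC1, the nicotinamidase, at 0.60, 0.68 and 0.73 (fast) and 1.94, 1.88 and 2.17 (thermal). Both were higher on every thermal array. YGP1, a secreted glycoprotein made on nutrient limitation, went in opposite directions: it rose after fast neutrons (0.60, 0.86 and 0.42) and fell after thermal neutrons (-0.63, -0.92 and -1.41).

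Antioxidant genes rose in 14 of 34 cases after fast and 24 of 35 after thermal neutrons, 13 of them in both, and fell in 1 and 2. All thermal arrays lay above all fast arrays in 6 of 34 of these genes, a share near the background. Without fast replicate 1, 2 or 3 the fast count was 1, 16 or 4. AHP1, a peroxiredoxin, was at 1.51, 1.58 and 1.02 after fast and 1.72, 1.25 and 1.32 after thermal neutrons. TRX2, the stress-induced thioredoxin, was at 1.43, 1.23 and 0.95 (fast) and 1.50, 1.14 and 1.59 (thermal), and GTT1, a glutathione transferase, at 1.14, 0.73 and 1.14 (fast) and 1.33, 1.08 and 0.78 (thermal). The means of these 3 genes differed by -0.06, -0.21 and -0.06 (fast minus thermal), less than the range within either radiation. ECM4, a glutathione transferase of the omega class, rose in both and was higher on every thermal array (1.12, 1.25 and 0.93 fast, 1.92, 1.74 and 2.37 thermal). PRX1, the mitochondrial peroxiredoxin, rose after thermal neutrons (1.82, 1.72 and 2.02) and did not pass after fast neutrons (0.65, -0.24 and 0.49).

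Storage carbohydrate genes rose after thermal neutrons in 14 of 19 cases and after fast neutrons in 1 of 19 (left out: 0, 3, 0), where 1 fell (left out: 0, 2, 0). TSL1, a regulatory subunit of the trehalose synthase complex, was at 1.25, 1.61 and 1.20 after thermal and 0.01, -0.26 and 0.11 after fast neutrons. TPS1, its synthase subunit, was at 0.86, 0.85 and 0.93 (thermal) and 0.00, -0.09 and -0.59 (fast), and neither gene overlapped between the radiations. GDB1, the glycogen debranching enzyme, rose in both (0.90 ± 0.20 fast, 0.49 ± 0.14 thermal). GLC3, the glycogen branching enzyme, rose after thermal neutrons with replicate 3 far above the others (0.90, 0.72 and 2.62), and GLK1, a glucokinase, was at 1.78, 1.66 and 2.10 after thermal and 0.29, 0.45 and -0.14 after fast neutrons.

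Most sugar uptake genes fell after thermal neutrons, and none passed after fast neutrons. Of the hexose transporter list 13 of 19 genes fell and 1 rose after thermal neutrons (median -0.82) and 0 of 18 after fast neutrons (median 0.13). By limma at an unadjusted p under 0.05, 0 were lower and 0 higher after fast neutrons. HXT1, the low-affinity transporter of high glucose, was at -2.23, -2.40 and -1.67 after thermal and -0.08, 0.55 and -0.03 after fast neutrons. HXT3, another low-affinity transporter, was at -1.88, -2.30 and -1.52 (thermal) and -0.01, 0.35 and 0.20 (fast). HXT2, which serves lower glucose, was at -2.26, -2.75 and -1.40 (thermal) and -0.16, -0.05 and -0.23 (fast), and HXT4 at -2.30, -2.56 and -1.54 (thermal) and -0.28, 0.40 and -0.53 (fast). In all 4 every fast array lay above every thermal array, and thermal replicate 3 was the least low of its group. HXT genes share sequence, HXT6 and HXT7 almost entirely, so their probes may read one another.

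Sucrose and maltose genes also fell mostly after thermal neutrons. Of 10 such genes 8 fell after thermal (left out: 5, 7, 10) and 0 after fast neutrons (left out: 0, 1, 0), with 0 by limma at an unadjusted p under 0.05 after fast neutrons. Every fast array lay above every thermal array in 2 of the 10, a share near the background of 16.4%. SUC2, invertase, was at -1.05, -1.25 and -1.28 (thermal) and -0.17, 0.02 and -0.67 (fast), and MAL31, a maltose permease, at -1.97, -1.82 and -0.51 (thermal) and -0.66, -0.14 and -0.11 (fast). ADR1, an activator of alcohol and fatty acid use, fell after thermal neutrons (-0.94, -1.10 and -0.66) and rose after fast neutrons (0.63, 0.55 and 0.49). MTH1, a corepressor of HXT genes, rose after fast neutrons (1.04, 0.87 and 1.11) and was at -1.80, -2.11 and 0.14 after thermal neutrons. HAP4, the activator of respiration genes, was at 0.49, 0.88 and 0.68 (fast) and -1.19, -1.15 and 0.22 (thermal). YKR075C, a gene of unknown function, was at 1.33, 0.95 and 1.24 (fast) and -2.49, -3.18 and 0.15 (thermal). At MTH1, HAP4 and YKR075C thermal replicate 3 was above 0 and the other 2 thermal arrays far below, so the thermal arrays disagree in sign at these genes. ISF1, a gene of respiratory growth, rose after fast neutrons (1.20, 1.66 and 1.09) and had thermal arrays at -0.89, -1.40 and 1.58.

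Several membrane lipid and zinc genes were lower after thermal than after fast neutrons. OLE1, the only fatty acid desaturase of yeast, was at -2.51, -2.45 and -2.52 after thermal neutrons (5.63-fold lower) and -0.62, -0.49 and -0.21 after fast neutrons (adjusted p = 0.093). IZH1, a membrane protein of zinc homeostasis, was at -2.30, -2.53 and -2.08 after thermal and 0.03, -0.74 and -0.41 after fast neutrons. IZH2, its relative, was at -1.80, -1.66 and -2.06 (thermal) and -0.84, -0.39 and -1.23 (fast) and fell in both. ZRT1, the high-affinity zinc transporter, was at -1.46, -1.40 and -1.49 (thermal) and -0.17, -0.11 and -0.57 (fast). In these 4 genes the fast arrays all lay above the thermal arrays. Of 10 zinc genes 8 fell after thermal and 3 of 10 after fast neutrons (left out: 0, 3, 0). INA1, a membrane protein of the Sur7 family, SUR1, of sphingolipid mannosylation, KNH1, of cell wall glucan synthesis, and THI7, the thiamine transporter, fell after thermal neutrons (means -1.98 ± 0.13, -1.60 ± 0.15, -1.49 ± 0.14 and -1.20 ± 0.13) and were at -0.51 ± 0.15, 0.01 ± 0.14, 0.26 ± 0.22 and 0.59 ± 0.21 after fast neutrons, not passing. OPI3, which methylates phospholipids to make phosphatidylcholine, rose after both, 2.12-fold after fast and 4.56-fold after thermal neutrons, with every thermal array higher.

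More phosphate genes passed as higher after thermal than after fast neutrons, as did more of all genes (21.0% and 6.16%). They rose after thermal neutrons in 13 of 22 cases, a share above the 21.0% of all genes, and fell in 3. After fast neutrons they rose in 2 of 22 (left out: 0, 7, 0) and fell in 1 (left out: 0, 2, 0). All thermal arrays lay above all fast arrays in 11 of 22, and the reverse held in 4, beside 15.5% and 16.4% of all genes. SPL2, a negative regulator of low-affinity phosphate uptake, rose in both (0.91, 1.18 and 0.70 fast, 1.77, 1.86 and 1.87 thermal), as did PHM6 (0.66 ± 0.14 and 1.11 ± 0.13). PHO89, a sodium and phosphate cotransporter, was at 1.95, 1.23 and 2.26 after thermal and 0.76, 1.46 and 0.21 after fast neutrons, overlapping. Iron and copper uptake genes were mixed, with 9 higher and 7 lower of 26 after thermal and 3 higher (left out: 1, 7, 1) and 1 lower (left out: 0, 3, 0) of 23 after fast neutrons. Over all genes 21.0% were higher and 23.1% lower after thermal neutrons, and 6.16% and 6.60% after fast neutrons. FIT2, a cell wall mannoprotein that retains iron carriers, was at 3.34, 2.54 and 2.49 after thermal and 1.18, -0.28 and 1.09 after fast neutrons, and TIS11, which degrades transcripts under iron shortage, rose in both (1.16 ± 0.17 fast, 0.71 ± 0.16 thermal). Of 32 sulfur and methionine genes 9 rose (left out: 9, 10, 11) and 5 fell (left out: 3, 2, 6) after thermal neutrons, a share that passed near the 44.1% of all genes, and after fast neutrons 1 of 27 rose (left out: 0, 2, 0) and 1 fell (left out: 0, 5, 0). MET17, which makes homocysteine from sulfide, rose in both, 1.55-fold and 6.54-fold, and MET6, methionine synthase, rose after thermal neutrons (1.62, 1.24 and 0.94) with fast arrays at -0.80, -0.29 and -0.55. Of 6 genes of aromatic amino acid breakdown 3 rose (left out: 2, 3, 4) and 2 fell (left out: 1, 0, 1) after thermal neutrons, and 2 fell after fast neutrons (left out: 0, 2, 0). ARO9, a transaminase that starts the breakdown of aromatic amino acids, was at 2.72, 2.87 and 2.08 after thermal and -0.47, -0.02 and -0.25 after fast neutrons. ARO10, the decarboxylase of the next step, rose after thermal neutrons (2.06, 2.11 and 1.24) and fell after fast neutrons (-1.20, -0.91 and -1.33).

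Many of the lowest genes after fast neutrons belong to daughter cell separation, the step in which wall-degrading enzymes free the bud from its mother after division. Of 15 such genes 11 fell after fast neutrons (median -1.13) and 9 of 15 after thermal neutrons (median -0.77), 9 of them in both. Without fast replicate 1, 2 or 3 the fast count was 9, 11 or 7. SCW11, a cell wall glucanase, was at -1.69, -2.58 and -1.90 after fast and -1.04, -1.20 and -1.33 after thermal neutrons. DSE1, a daughter-specific protein, was at -1.81, -2.07 and -1.73 (fast) and -0.93, -1.25 and -0.32 (thermal), and EGT2, a glycoprotein of septum degradation, at -1.68, -1.69 and -1.93 (fast) and -0.53, -0.92 and -0.87 (thermal). All 3 were lower on every fast array. DSE4, a daughter-specific glucanase, fell after fast neutrons (-1.63, -1.59 and -1.75) and was at 0.00, 0.08 and -0.72 after thermal neutrons, while DSE2, of the same set, fell after both (-1.63 ± 0.18 and -1.54 ± 0.14). SFG1, a transcription factor of superficial growth, also fell in both (-1.60 ± 0.31 and -1.39 ± 0.15), where fast replicate 2 was the lowest array at -2.66.

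More genes of the cyclin lists passed as lower after thermal than after fast neutrons, as did more of all genes (23.1% and 6.60%). Single cyclins differed in whether the arrays of the 2 exposures overlapped. CLN2, a G1 cyclin, was at -0.77, -0.56 and -1.04 after fast and -1.80, -1.76 and -1.81 after thermal neutrons, and CLB1, a mitotic cyclin, at -0.51, -1.38 and -0.50 (fast) and -1.74, -1.58 and -1.94 (thermal). Both fell after both exposures with all fast arrays above all thermal arrays. CLN1, the other G1 cyclin of this pair, was at -1.67, -1.49 and -1.99 after thermal neutrons and at -0.82, -1.0 and 1.07 after fast neutrons, where replicate 3 lay apart. CLB5, an S phase cyclin, was at -0.33, -1.845 and -0.17 after fast and -0.73, -0.29 and -0.99 after thermal neutrons, and its arrays overlapped. Its fast mean was the lower one (-0.78 ± 0.31, thermal -0.67 ± 0.15) through fast replicate 2 alone, which lay far below the other fast arrays. Of the G1 and S list 2 of 16 fell after fast (left out: 0, 3, 0) and 11 of 18 after thermal neutrons. Of the G2/M list 3 of 19 fell after fast (left out: 0, 7, 0) and 11 of 19 after thermal neutrons. Both thermal shares lay above the 23.1% of all genes, and 0 genes of either list rose after thermal neutrons. The fast mean was the higher one in 8 of 16 genes of the G1 and S list and in 13 of 18 of the G2/M list. All fast arrays lay above all thermal arrays in 4 of the 16 and 7 of the 18, beside 16.4% of all genes. The reverse held in 1 and 0, beside 15.5%. Histone genes, which are transcribed in S phase, fell in 5 of 10 cases after fast (left out: 1, 6, 0) and 6 of 10 after thermal neutrons (left out: 4, 2, 7), with 5 in both and medians of -0.66 and -0.46. HHT2, a histone H3 gene, was at -0.60, -1.12 and -1.10 (fast) and -0.66, -0.71 and -0.44 (thermal). The share of cells in each cycle phase was not measured, and fewer cells of a phase and less RNA per cell cannot be told apart in these bulk samples.

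Amino acid synthesis genes passed as lower more often after fast neutrons than all genes tested (6.60%) on the 3 arrays. Of 57 such genes 20 fell and 0 rose after fast neutrons (3 higher by limma at an unadjusted p under 0.05, median -0.38), and after thermal neutrons 15 of 56 fell and 8 rose (left out: 4, 4, 10) with a median of -0.18. The thermal counts lie near and below the 23.1% of all genes that fell and the 21.0% that rose. Without fast replicate 1, 2 or 3 the count lower after fast neutrons was 5, 27 or 3. CHA1, a serine and threonine deaminase that is induced by those amino acids, fell after fast neutrons (-2.14, -1.84 and -1.84) and was at 0.02, 0.39 and -0.02 after thermal neutrons. GLN1, glutamine synthetase, was at -1.45, -1.26 and -1.71 (fast) and -0.07, 0.45 and 0.56 (thermal), without overlap. LYS9, of lysine synthesis, was at -1.11, -1.61 and -1.26 (fast) and -0.23, -0.28 and -0.77 (thermal) and fell in both. LYS2, of the same pathway, fell after fast neutrons (-0.89, -0.40 and -1.05) and rose after thermal neutrons (0.44, 0.43 and 0.31), and LYS1 was at -0.46, -0.18 and -0.94 (fast) and 1.21, 1.13 and 1.18 (thermal). ILV3, of branched-chain synthesis, fell in both (-1.04 ± 0.15 and -0.98 ± 0.12).

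Amino acid permease genes fell in 5 of 26 cases after fast (left out: 3, 13, 3) and 17 of 33 after thermal neutrons and rose in 1 (left out: 0, 2, 0) and 4. AGP1, a broad amino acid permease, was at -1.71, -1.35 and -1.69 (fast) and -2.23, -1.94 and -1.50 (thermal), DIP5, a permease for acidic amino acids, at -1.58, -1.48 and -1.82 (fast) and -1.18, -0.96 and -1.28 (thermal), and BAP3, for branched-chain amino acids, at -1.12, -0.71 and -1.06 (fast) and -1.35, -1.63 and -1.59 (thermal). ADE17, of purine synthesis, fell after fast neutrons (-1.27, -0.85 and -1.11) and was at -0.17, -0.01 and -0.17 after thermal neutrons. Purine genes fell in 7 of 17 cases after fast (left out: 0, 9, 0) and 7 of 18 after thermal neutrons (left out: 4, 5, 7). Of the genes under retrograde control, by which mitochondria signal to the nucleus, CIT2, the peroxisomal citrate synthase, fell in both (-1.16 ± 0.15 and -1.77 ± 0.15), DLD3, a lactate dehydrogenase, fell after fast neutrons (-1.01, -1.34 and -0.81, thermal 0.05, 0.05 and -0.33), and PYC1, pyruvate carboxylase, rose after thermal neutrons (1.18, 1.19 and 1.30, fast -0.30, 0.03 and -0.03).

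Many ribosome assembly genes fell after thermal neutrons: 25 of 57 for the small subunit (median -0.34) and 30 of 57 (left out: 17, 18, 27) for the large subunit (median -0.39). After fast neutrons the counts were 3 of 57 (left out: 0, 5, 0) and 0 of 56 (left out: 0, 4, 0), the latter with 7 by limma at an unadjusted p under 0.05. The medians were -0.06 and -0.07, and 3 (left out: 0, 5, 0) and 2 (left out: 0, 6, 0) rose. Every fast array lay above every thermal array in 16 of 56 small subunit and 21 of 55 large subunit genes. DBP2, an RNA helicase, was at -1.42, -1.38 and -1.62 after thermal and -0.18, -0.53 and -0.18 after fast neutrons. NOP58, of the box C/D particles that modify ribosomal RNA, fell in both (-1.01 ± 0.15 and -0.79 ± 0.12). BUD21, of the small subunit processome, rose after fast neutrons (0.65, 0.67 and 0.67) and fell after thermal neutrons (-0.29, -0.47 and -0.68). Of 123 cytosolic ribosomal protein genes 15 were higher (left out: 0, 37, 0) and 2 lower (left out: 0, 4, 0) after fast neutrons. Over all genes these shares were 6.16% and 6.60%. After thermal neutrons 21 were higher (left out: 13, 9, 24) and 9 lower (left out: 4, 3, 8) of 125. These thermal counts lie below the 21.0% of all genes that rose and the 23.1% that fell. Most means of the ribosomal protein genes were above 0 in both, 87 of 123 after fast and 90 of 125 after thermal neutrons. Their medians were 0.25 and 0.14, beside 0.00 and -0.04 over all genes. Many of the ribosomal protein genes are near-identical pairs. TEF4, of translation elongation factor 1B, fell in both (-1.31 ± 0.17 and -0.72 ± 0.15).

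Nuclear genes of respiration rose in 11 of 45 cases (left out: 1, 17, 1) and fell in 1 (left out: 0, 3, 0) after fast neutrons. On the 3 arrays the share that rose lay above the 6.16% of all genes, and the share that fell below the 6.60%. After thermal neutrons 12 of 45 rose, near the 21.0% of all genes, and 4 fell (left out: 2, 2, 5). CYC7, the stress form of cytochrome c, rose in both (1.20, 1.44 and 1.16 fast, 1.01, 0.45 and 0.79 thermal). STF1, an inhibitor of ATP synthase hydrolysis, also rose in both and was higher on every thermal array (0.74 ± 0.15 and 1.86 ± 0.13). Transcripts of the mitochondrial genome fell in 3 of 4 measured cases after fast (left out: 1, 4, 2) and 3 of 5 after thermal neutrons (left out: 1, 3, 4). ATP6, a subunit of ATP synthase, was at -1.21, -1.44 and -1.17 (fast) and -0.80, -0.94 and -1.22 (thermal), and COX3, of cytochrome oxidase, at -1.64, -1.16 and -0.98 (fast) and -0.85, -0.40 and -0.68 (thermal). The RNA was poly(A)-selected, and mitochondrial transcripts of yeast carry no poly(A) tail, so how far the selection let these transcripts through was not measured.

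**Figure D4:**
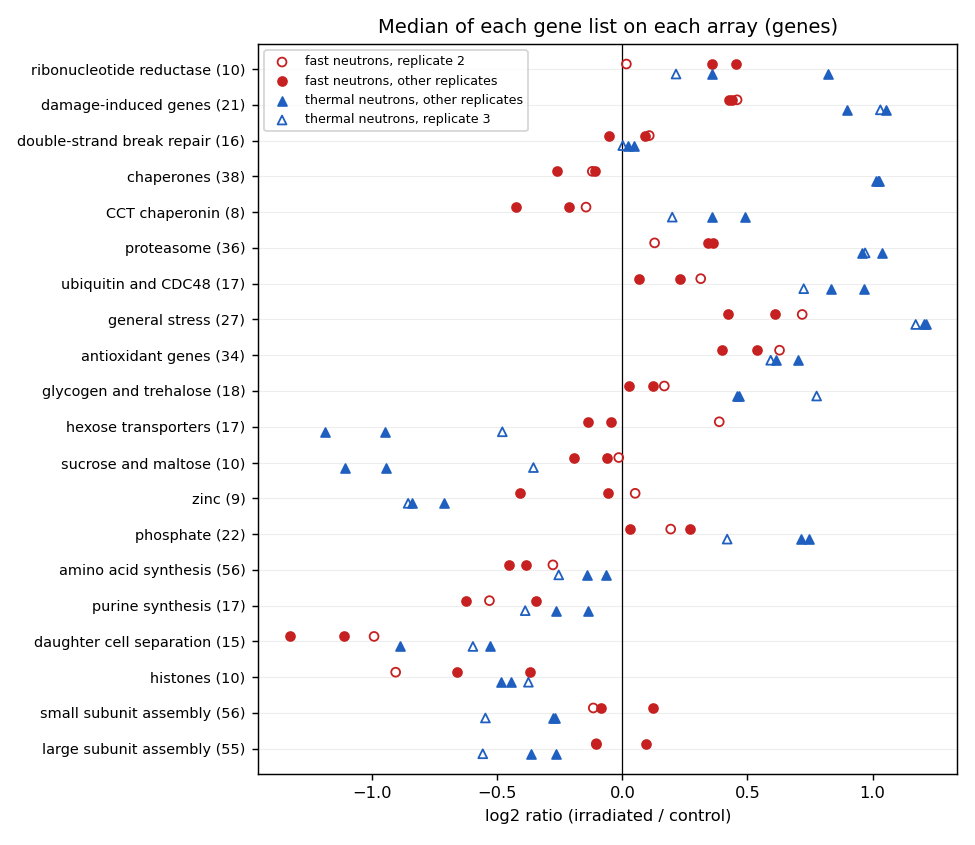
Median log2 ratio over the genes of 20 lists on each array (fast neutrons red circles, thermal neutrons blue triangles; fast replicate 2 and thermal replicate 3 are open symbols), over genes with a value on all 6 arrays. Chaperones, proteasome and ubiquitin genes lie further right on the 3 thermal arrays, hexose transporters, sucrose and maltose genes further left, and daughter cell separation genes are left of -0.5 on all 6 arrays.

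The 19 genes that passed in opposite directions are few. Of them 12 rose after fast and fell after thermal neutrons (0.248% of 4846) and 7 did the reverse (0.144%), and 16 had one sign on all 3 fast arrays and the other on all 3 thermal arrays. The 12 include ADR1, YGP1, BUD21, MTH1, HAP4 and YKR075C, given above. BSC1, a protein of unknown function, was at 0.63, 1.22 and 1.11 after fast and -0.72, -0.16 and -0.71 after thermal neutrons, UBP11, a ubiquitin protease, at 0.58, 0.97 and 0.68 (fast) and -0.58, -0.63 and -0.33 (thermal), and YOR338W, of unknown function, at 0.69, 1.08 and 0.83 (fast) and -0.30, -0.41 and -0.96 (thermal). PRP45, a splicing factor, CYB5, cytochrome b5, and SEC20, a SNARE protein of the Golgi, had fast means of 0.62 ± 0.14, 0.55 ± 0.14 and 0.57 ± 0.14 and thermal means of -0.40 ± 0.13, -0.45 ± 0.14 and -0.34 ± 0.12. The 7 are SSA4, SSA2, BTN2, HSP60, LYS2 and ARO10, given above, and PNS1, a membrane protein related to choline transporters, at -0.64, -1.20 and -0.44 (fast) and 0.65, 0.63 and 0.53 (thermal). The count ran from 0 to 62 as single arrays were left out and was 0 from the high-power scans alone.

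**Figure D5:**
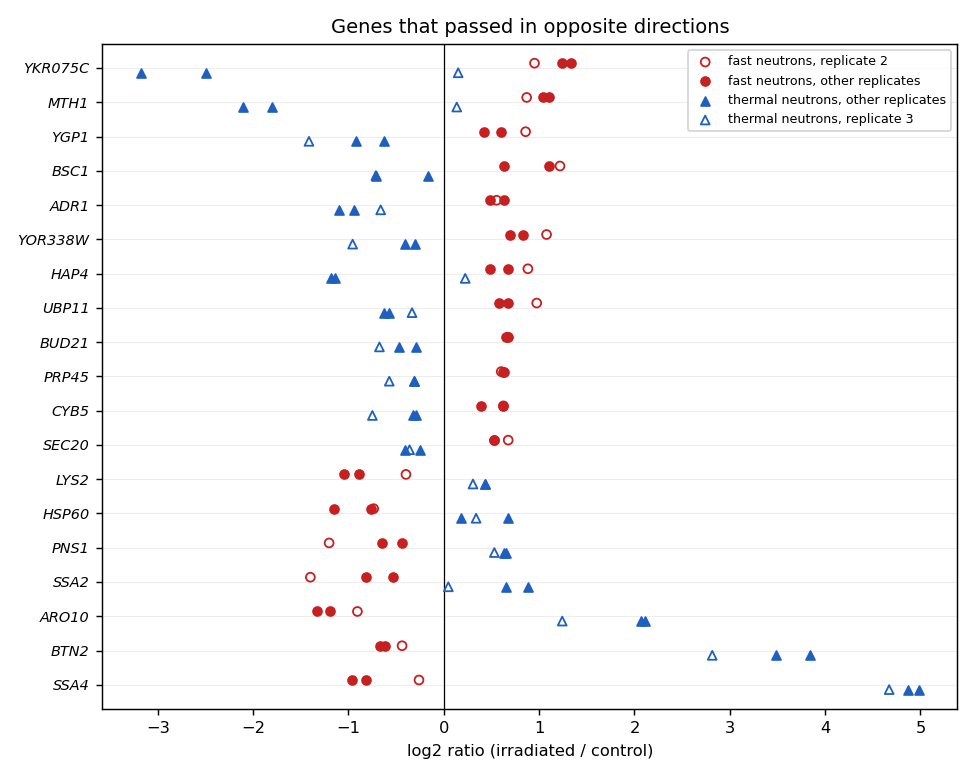
Log2 ratio on each array for the 19 genes that passed in opposite directions, ordered by the difference of the means (symbols as in the plot of damage genes). For 16 genes the red circles and blue triangles lie on opposite sides of 0. At MTH1, HAP4 and YKR075C the open triangle of thermal replicate 3 lies right of 0, away from the other 2 thermal arrays.

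The genes shared in direction by the 2 neutron exposures were set beside the gamma ray (17 Gy) and carbon ion (25 Gy) arrays, which have their own controls. Of the 396, 382 had values on all arrays of both. All 3 carbon arrays pointed the same way for 321 of them (84.0%), beside 46.1% of all 4420 genes measured on the 12 arrays, taken in the direction of the fast mean. All 3 gamma arrays pointed the same way for 195 (51.0%, beside 36.7%) and the other way for 86. The same sign on all 12 arrays was found for 175 of the 382 (45.8%), beside 497 of all 4420 genes (11.2%), though the 382 were chosen for passing the same way in both neutron groups. Among the 175 were HUG1, RNR2, RNR4, DDR2, SCW11, DSE1 and SUN4, a cell wall glucanase of daughter separation (-1.13 ± 0.15 fast, -1.23 ± 0.12 thermal).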

How the data were processed

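Each array was a 2-colour comparison of poly(A) RNA from irradiated (Cy5) and unirradiated (Cy3) cells. The deposited values are log2 ratios that the authors normalised by LOWESS on spots with flag 0, per the labels, and each array has a high-power and a low-power scan. The direction of the ratio was read as irradiated over control, from the dyes in the labels. The 2 scans of an array were averaged per probe, probes of a gene were averaged, and genes with a value on all 3 arrays of a radiation were tested against 0 with limma 3.58.1 (lmFit, eBayes; prior df 5.69 for fast and 7.19 for thermal neutrons), with Benjamini-Hochberg adjustment over all genes. Arrays were counted, not scans. The number of arrays limits the precision. Genes were named through the platform annotation and RefSeq gene table given for this work. The genes named in the text were picked from a larger set, and not every gene of that set is named. In each radiation the set holds the 10 highest and 10 lowest genes and up to 4 genes per list with the smallest p. It also holds the 10 highest and lowest shared genes, the opposite calls and the widest gaps between arrays. All measured ribonucleotide reductase, damage-induced and chaperone genes belong to it too. The 48 gene lists and the groups were chosen with earlier results of these data known. A planned count of promoter motifs was not run, since no promoter sequence was used here. The test was checked on simulated data. Alternatives were the scan used, centring, scaling, array weights, gene filters, a joint fit of the thermal table and each array left out.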

Additional observations from a re-analysis of the deposited data

Results flagged for a closer look

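Of the genes and lists whose values are given above, those are listed here where all 3 arrays of one radiation had one sign and all 3 arrays of the other had the opposite sign. The difference itself was not tested, because the 2 radiations were measured on different array types and normalised separately. Over the 4846 genes the pattern of 3 fast arrays above 0 with 3 thermal arrays below 0 was found at 180 genes (3.71%) and the reverse at 126 genes (2.60%). Values are the fast mean minus the thermal mean in log2 units.

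Chaperone genes lay below 0 on all fast arrays and above 0 on all thermal arrays at SSA4 (-5.52), BTN2 (-3.96), HSP78 (-3.26), SSA3 (-2.80), CPR6 (-1.96), HSP82 (-1.85), HSC82 (-1.54), SSA2 (-1.44), KAR2 (-1.40), HSP60 (-1.28), HCH1 (-0.96) and SSC1 (-0.93). The same held for the array medians of the list of cytosolic and mitochondrial chaperones (median difference -1.20) and of the CCT chaperonin (-0.74). It also held for the lists of aromatic amino acid breakdown (-0.47) and of sulfur and methionine genes (-0.12), the latter with all 6 array medians between -0.13 and 0.14. Outside the chaperones, this order was found at ARO10 (-2.95), ARO9 (-2.80), MET6 (-1.82), LYS1 (-1.70), PNS1 (-1.37), LYS2 (-1.17), TPS1 (-1.11) and RAD2 (-0.92), which serve aromatic amino acid breakdown (ARO9, ARO10), methionine and lysine synthesis (MET6, LYS1, LYS2), membrane transport (PNS1), trehalose synthesis (TPS1) and excision repair (RAD2).

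The opposite order, above 0 on all fast arrays and below 0 on all thermal arrays, was found at THI7 (1.79), YGP1 (1.61), BSC1 (1.52), ADR1 (1.45), YOR338W (1.42), UBP11 (1.26), BUD21 (1.14), PSF3 (1.11), PRP45 (1.02), CYB5 (1.00) and SEC20 (0.91). These include transcription factor ADR1, the thiamine transporter THI7 and the GINS subunit PSF3. The array medians of the DNA replication list were also above 0 after fast and below 0 after thermal neutrons, with a median difference of 0.07. Its thermal array medians ran from -0.11 to -0.02, beside -0.04 to -0.03 over all genes, and its fast medians from 0.08 to 0.15, beside -0.01 to 0.02.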

How the results depend on the processing

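No paired analysis was possible because fast and thermal neutrons were each tested against 0 and not against each other; the same replicate numbers gave correlations of residuals across genes of 0.036, 0.005 and -0.187. The fast count of 630 (304 higher, 326 lower) was 35 (10, 25) from the high-power scans, 1323 (650, 673) from the low-power scans, 972 (459, 513) with arrays scaled to one spread, 1732 (863, 869) with array weights and 1391 (674, 717) with replicate 2 from its low-power scan only, an alternative chosen after seeing the data. With one array left out it ranged from 62 to 1259 (20 to 628 higher, 36 to 631 lower), and a fit of 2 arrays has fewer degrees of freedom. The thermal count of 2337 ranged from 1515 to 2627 with one array left out (769 to 1409 lower, 742 to 1218 higher). With thermal arrays centred on their median, 1205 were higher and 1096 lower, so the larger direction turned. Genes that passed after both (415) numbered 29 from high-power scans, 694 from low-power scans, 1147 with array weights and 827 with replicate 2 from its low-power scan, and 48 to 751 with one array left out. Opposite calls (19) numbered 0 from high-power scans, 45 from low-power scans, 29 with both scans required, 36 with scaling, 135 with array weights, 55 with replicate 2 from its low-power scan, and 0 to 62 with one array left out. The cause was not tested. RFA3 (0.51, adjusted p = 0.026) and RPT2 (0.48, adjusted p = 0.036) passed as higher after fast neutrons without replicate 2, while without replicate 1 their means were -0.38 and -0.41. The counts of non-overlapping groups (752 and 795) stayed within 1.5 times under every alternative run. Signal over background was not used here.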
